A study of Gallus gallus with 6 samples.

Results

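The genes described are 8 transcription factors that set up and divide the T cell lineage: TCF7, LEF1, BCL11B, GATA3, RUNX3, TBX21, EOMES and IKZF1. They were chosen by gene symbol, with earlier results of these data known, and all 8 were found among the 15491 genes of the deposited table. All 8 also passed the filter on low counts, which kept 14743 genes. They were measured by messenger RNA sequencing of abdominal fat from male broilers of the Ross strain, a fast-growing meat chicken, in 3 heat stress and 3 thermoneutral libraries. Between day 21 and day 35 of age, heat stress chickens were kept at 32 °C and thermoneutral chickens at 22 °C. Both groups were at 50% humidity, ate the same diet, had light for 24 h a day and had been in individual cages since day 14. The comparison asks how chronic heat alters gene expression in fat. The labels do not state that each library is 1 chicken, so tests measure the spread between these libraries.

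Fat tissue holds resident lymphocytes among its fat cells. From work in mice and humans, TCF7 (also called TCF-1) and LEF1 are paired HMG-box proteins that start the T cell programme and mark naive and long-lived T cells. BCL11B and GATA3 commit precursors to the T lineage, and GATA3 later directs type 2 helper cells. RUNX3 guides CD8 and cytotoxic cells, and the paired T-box proteins TBX21 (T-bet) and EOMES drive interferon gamma and killing functions in T cells and natural killer cells. IKZF1 (Ikaros) is a zinc finger protein of the whole lymphoid lineage. Several of these genes are also active outside T cells, LEF1 as an effector of Wnt signalling and GATA3 in preadipocytes of mice.

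Total counts per library were 38336086 to 45163458 in heat stress and 30673333 to 35836632 in thermoneutral libraries, so every heat stress library was the deeper. Levels are given as CPM, the counts per 1000000 of a library's scaled total. The fat cell genes ADIPOQ (309 to 403 CPM in heat stress, 245 to 394 CPM in thermoneutral fat) and FABP4 (5548 to 7102 CPM in heat stress, 7081 to 7957 CPM in thermoneutral fat) were high in every library, as the tissue label states. Thermoneutral 2 stood apart, with the highest levels of the B cell gene PAX5 (10.2 CPM, against 2.64 and 2.27 CPM in thermoneutral 1 and 3). The TCF7 results, which thermoneutral 2 moves most, are given with and without it. Heat stress 1 also stood apart from its group, with macrophage and dendritic cell markers summing to 5390 CPM, against 3083 and 3580 CPM in heat stress 2 and 3. The thermoneutral libraries summed to 5187 to 5436 CPM, so heat stress 1 lay within their range. CD74 was the largest part of the sum, at 3934, 2129 and 2603 CPM in heat stress 1, 2 and 3. Chi-square over its degrees of freedom, on counts, was 96.7 and 98.2 for heat stress 1 against heat stress 2 and 3. Between heat stress 2 and 3 it was 34.4.

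All 8 factors had a lower mean in heat-stressed fat, with log2 fold changes (heat stress over thermoneutral) from -2.02 for TCF7 to -0.28 for TBX21 and a median of -0.91, against -0.0045 over all genes tested. A lower value by sign was shared by 50.6% of all genes. In the quasi-likelihood test of edgeR, adjusted over all genes to an FDR of 0.05, 0 of the 8 passed, as against 0.061% of genes that passed lower, 0.115% that passed higher and 0.176% in either direction. No single factor is therefore called changed by that test. At an unadjusted p under 0.05 in edgeR, 7 of the 8 were lower, where the share of all genes was 9.2%. In 7 of the 8 (all but TBX21) every heat stress library lay below every thermoneutral library, which held for 12.4% of all genes, while 0 of the 8 lay above, which held for 12.6%. DESeq2 on the same counts called 5 of the 8 lower at an adjusted p under 0.05 (TCF7, LEF1, BCL11B, RUNX3 and EOMES), where it called 4.31% of genes lower. In bulk tissue, fewer T cells, less of these mRNAs per T cell and a difference in other cells that express them cannot be told apart.

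**Figure D1:**
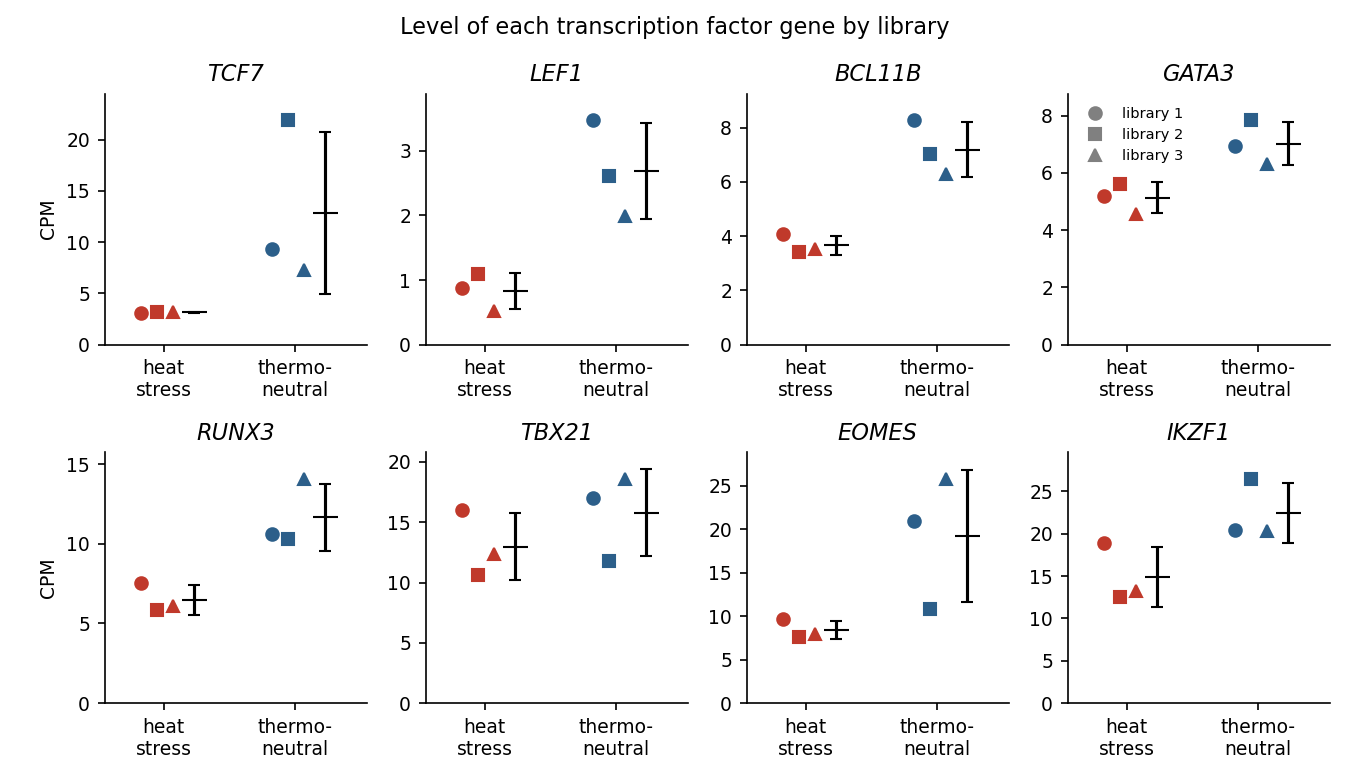
Level of each factor in CPM by library, with heat stress libraries (red) left of thermoneutral libraries (blue), marker shape giving the library number, and a bar for the mean ± SD of 3 libraries. The groups overlap for TBX21 only, and TCF7 in thermoneutral 2 (21.9 CPM) stands above all other TCF7 values.

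TCF7 (gene ID 395229) measured 3.08, 3.17 and 3.22 CPM in heat stress 1, 2 and 3, against 9.37, 21.9 and 7.31 CPM in thermoneutral 1, 2 and 3. The heat stress libraries lay within 1.046-fold of each other, while the thermoneutral libraries spread over 2.99-fold because thermoneutral 2 stood high. The means were 3.16 ± 0.072 CPM in heat stress and 12.85 ± 7.88 CPM in thermoneutral fat (SD, n = 3 each). The log2 fold change was -2.02 ± 0.41 (SE), a group estimate of 4.06-fold lower, with 3 of 3 heat stress libraries lower and an edgeR FDR of 0.0758. Without thermoneutral 2 it was 2.65-fold lower (log2 fold change -1.41, edgeR FDR = 0.131). TCF7 had the most negative log2 fold change of the 8 with all libraries, but without thermoneutral 2 the log2 fold changes of LEF1 (-1.72) and EOMES (-1.48) were larger in size. In the same library CCR7, a homing receptor of naive lymphocytes, was also high, at 14.2 CPM against 5.14 and 3.84 CPM in thermoneutral 1 and 3. So were the B cell gene CD79B (12.3 CPM, against 2.47 and 3.44 CPM) and the haemoglobin gene HBBA (458.6 CPM, against 232.5 and 199.6 CPM). LEF1 was not the highest there (2.61 CPM, against 3.47 and 1.99 CPM). The reason for these levels was not tested. A further protein-coding gene overlaps TCF7 in the reference gene table of another build (GRCg7b), so reads of the 2 genes may have been shared.

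LEF1 (gene ID 395865), the partner of TCF7, was the scarcest of the 8 in heat stress. It measured 0.874, 1.09 and 0.524 CPM in heat stress 1, 2 and 3, against 3.47, 2.61 and 1.99 CPM in thermoneutral 1, 2 and 3. The groups did not overlap. These values rest on 38, 50 and 20 counts in heat stress and 104, 82 and 70 counts in thermoneutral libraries. The highest heat stress library had an exact 95% Poisson interval of 0.807 to 1.43 CPM and the lowest thermoneutral library one of 1.55 to 2.51 CPM, so they were apart beyond counting error, the only error these intervals cover. The log2 fold change was -1.69 ± 0.38 (SE), a group estimate of 3.23-fold lower, with 3 of 3 libraries lower and an edgeR FDR of 0.0872. TCF7 over LEF1, as a ratio of the authors' TPM values (scaled for gene length and depth), was 1.65, 1.25 and 2.88 in heat stress and 1.16, 3.475 and 1.58 in thermoneutral libraries. That ratio overlapped between the groups.

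BCL11B (gene ID 423444), a commitment factor, measured 4.07, 3.43 and 3.51 CPM in heat stress 1, 2 and 3, against 8.27, 7.04 and 6.28 CPM in thermoneutral 1, 2 and 3. Both groups were tight and did not overlap. Its log2 fold change was -0.97 ± 0.20 (SE), a group estimate of 1.96-fold lower, with 3 of 3 libraries lower. Its FDR was the smallest of the 8 in edgeR (0.0755). GATA3 (gene ID 419106), which acts beside it in early T cells, measured 5.199, 5.63 and 4.56 CPM in heat stress and 6.94, 7.83 and 6.31 CPM in thermoneutral libraries. In CPM the groups were apart, but in TPM they overlapped (4.05, 3.56 and 2.82 TPM in heat stress, against 4.36, 4.77 and 3.68 TPM in thermoneutral libraries). The GATA3 log2 fold change was -0.45 ± 0.18 (SE), a group estimate of 1.37-fold lower, with 3 of 3 libraries lower in CPM and an edgeR FDR of 0.248. Noncoding genes overlap GATA3 in the GRCg7b gene table, and whether counting used strand is not given in the sources used here.

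RUNX3 (gene ID 769687), the factor of CD8 and cytotoxic cells, measured 7.55, 5.825 and 6.08 CPM in heat stress 1, 2 and 3, against 10.6, 10.3 and 14.1 CPM in thermoneutral 1, 2 and 3. The groups did not overlap, and thermoneutral 3 was the highest library. The log2 fold change was -0.85 ± 0.19 (SE), a group estimate of 1.80-fold lower, with 3 of 3 libraries lower and an edgeR FDR of 0.0873.

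The T-box genes come as a related pair. EOMES (gene ID 428443) measured 9.66, 7.67 and 7.92 CPM in heat stress 1, 2 and 3, against 20.9, 10.9 and 25.8 CPM in thermoneutral 1, 2 and 3. The groups did not overlap, but thermoneutral 2 lay near the heat stress libraries, the reverse of its place for TCF7. The EOMES log2 fold change was -1.19 ± 0.30 (SE), a group estimate of 2.28-fold lower, with 3 of 3 libraries lower and an edgeR FDR of 0.112. TBX21 (gene ID 100858002) measured 16.0, 10.6 and 12.35 CPM in heat stress and 17.04, 11.8 and 18.6 CPM in thermoneutral libraries. The groups overlapped, and the TBX21 log2 fold change of -0.28 ± 0.22 (SE, edgeR FDR = 0.542) was close to its error. EOMES over TBX21, as a ratio of TPM, was 0.367, 0.439 and 0.387 in heat stress, against 0.745, 0.558 and 0.843 in thermoneutral libraries. The ratio did not overlap between the groups, with a log2 difference of -0.83. Its two-sided exact permutation test gave p = 0.1, the smallest that 3 libraries against 3 allow, and the pair was singled out with these values known.

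IKZF1 (gene ID 395974), the pan-lymphoid factor, measured 18.9, 12.5 and 13.2 CPM in heat stress 1, 2 and 3, against 20.5, 26.5 and 20.4 CPM in thermoneutral 1, 2 and 3. Heat stress 1 came close to the thermoneutral range without entering it. The log2 fold change was -0.59 ± 0.20 (SE), a group estimate of 1.51-fold lower, with 3 of 3 libraries lower and an edgeR FDR of 0.178.

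**Figure D2:**
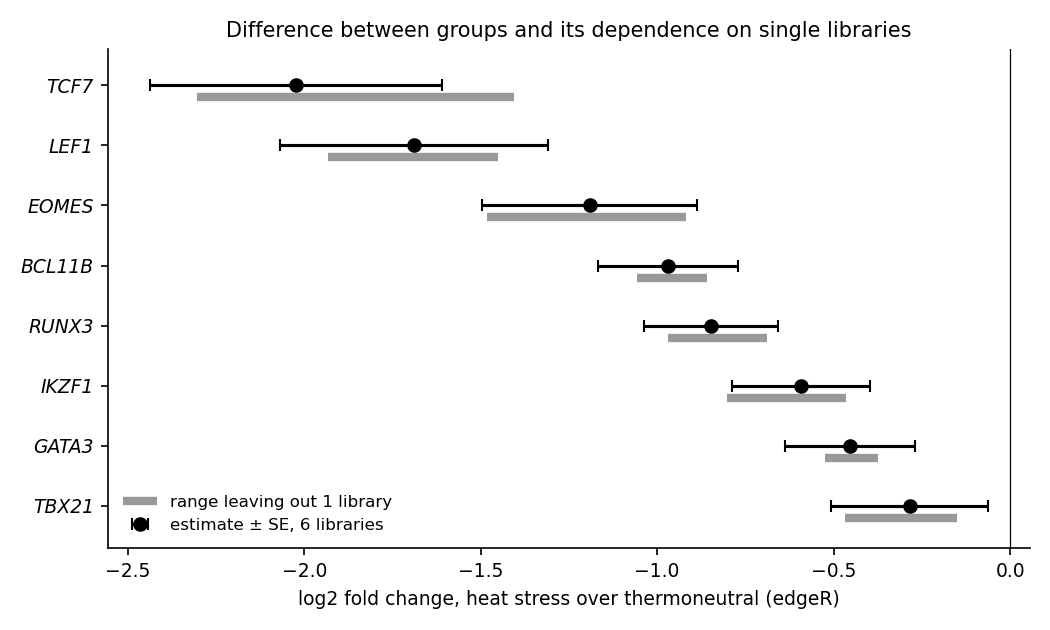
Log2 fold change of each factor in edgeR, with its SE (black), above the range obtained when each of the 6 libraries was left out in turn (grey). All ranges stay below 0, and the TCF7 range is the widest, from -2.30 to -1.41.

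The libraries did not rank alike for every factor. Among thermoneutral libraries, thermoneutral 2 was the highest for TCF7, GATA3 and IKZF1 and the lowest for EOMES, TBX21 and RUNX3, for which thermoneutral 3 was highest. LEF1 and BCL11B were highest in thermoneutral 1. Among heat stress libraries, heat stress 1 was the highest for TBX21, EOMES, RUNX3, BCL11B and IKZF1, while heat stress 2 was highest for LEF1 and GATA3. The spread within a group, as the highest library over the lowest, ran from 1.046-fold (TCF7) to 2.07-fold (LEF1) in heat stress and from 1.24-fold (GATA3) to 2.99-fold (TCF7) in thermoneutral fat.

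Per gene length, TBX21 was the most abundant factor in both groups, at 13.7 ± 2.79 TPM in heat stress and 15.6 ± 3.50 TPM in thermoneutral fat (SD, n = 3 each). In heat-stressed fat IKZF1 (5.98 ± 1.34 TPM) and EOMES (5.39 ± 0.68 TPM) came next and overlapped each other, below the TBX21 range. RUNX3 (3.77 ± 0.52 TPM) and GATA3 (3.48 ± 0.62 TPM) followed and overlapped. TCF7 (1.27 ± 0.040 TPM) and BCL11B (1.26 ± 0.14 TPM) overlapped at about the same level, and LEF1 was lowest, at 0.742 ± 0.287 TPM. In thermoneutral fat the order was TBX21, EOMES (11.5 ± 4.59 TPM), IKZF1 (8.64 ± 1.63 TPM), RUNX3 (6.34 ± 1.19 TPM), TCF7 (4.88 ± 3.09 TPM) and GATA3 (4.27 ± 0.55 TPM), each overlapping the next. LEF1 (2.38 ± 0.61 TPM) and BCL11B (2.34 ± 0.31 TPM) overlapped each other, below the GATA3 range.

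**Figure D3:**
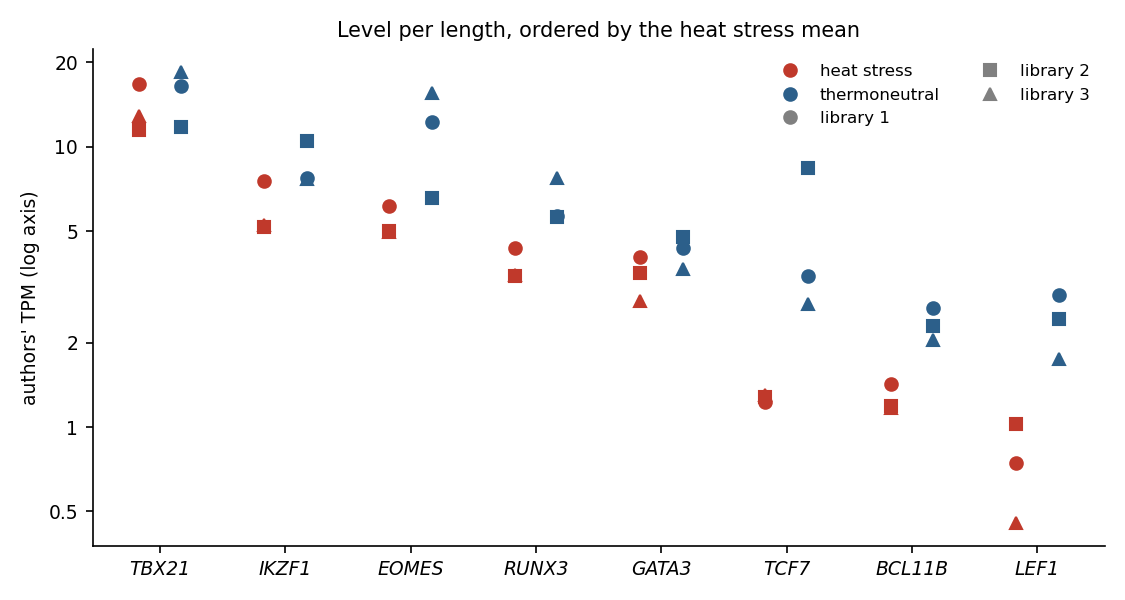
The authors' TPM of each factor on a log axis, heat stress (red) left of thermoneutral (blue), ordered by the heat stress mean, with marker shape giving the library number. TBX21 is the most abundant by mean in both groups, and LEF1 ranges from 0.454 to 1.03 TPM in heat stress, against 1.75 to 2.97 TPM in thermoneutral fat.

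The factors were also set against T cell receptor mRNA of the same library. Each was divided by the summed CPM of CD3D, CD3E and CD247, which encode signalling chains of that receptor. That sum was 82.4, 74.1 and 74.1 CPM in heat stress 1, 2 and 3, against 115, 122 and 122 CPM in thermoneutral 1, 2 and 3, a log2 difference of -0.64. CD3D alone of the 3 passed in edgeR (log2 fold change -0.76 ± 0.089, FDR = 0.0476). TCF7 was 3.74%, 4.28% and 4.35% of the sum in heat stress, against 8.17%, 17.9% and 6.003% in thermoneutral libraries. LEF1 was 1.06%, 1.47% and 0.708% in heat stress, against 3.02%, 2.14% and 1.635% in thermoneutral libraries. BCL11B was 4.94%, 4.64% and 4.74% in heat stress, against 7.21%, 5.76% and 5.16% in thermoneutral libraries. In these 3 factors every heat stress library lay below every thermoneutral one, which held for 0.638% of all genes. That share is low since the sum itself is lower in heat stress, so the ratio of the median gene was higher by 0.64 (log2).

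The log2 differences of this ratio were -1.22 for TCF7, -1.09 for LEF1 and -0.33 for BCL11B, with a two-sided exact permutation p = 0.1 each, the smallest the design allows. Without thermoneutral 2 the TCF7 difference was -0.77. By sign, 5 of the 8 ratios were lower in heat stress, which held for 7.97% of all genes. That share is also low because the sum itself is lower in heat stress. It therefore cannot show an excess of lower ratios among the factors. The other 5 factors, EOMES and RUNX3 among them, overlapped between the groups. EOMES averaged 10.9% ± 0.71 in heat stress and 16.1% ± 6.41 in thermoneutral fat, and RUNX3 8.41% ± 0.67 in heat stress and 9.75% ± 1.62 in thermoneutral fat (SD, n = 3 each). IKZF1 averaged 19.2% ± 3.26 in heat stress and 18.75% ± 2.60 in thermoneutral fat, GATA3 6.69% ± 0.79 and 5.88% ± 0.63, and TBX21 16.8% ± 2.54 and 13.3% ± 3.13 in the same order. Their log2 differences were -0.47, -0.20, 0.031, 0.18 and 0.36 (exact permutation p = 0.4, 0.2, 0.7, 0.3 and 0.3). The EOMES difference was -0.33, -0.85 and -0.23 without thermoneutral 1, 2 and 3. The p of the 8 ratios are given unadjusted, and a design in which no p falls below 0.1 cannot show that a ratio was equal.

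**Figure D4:**
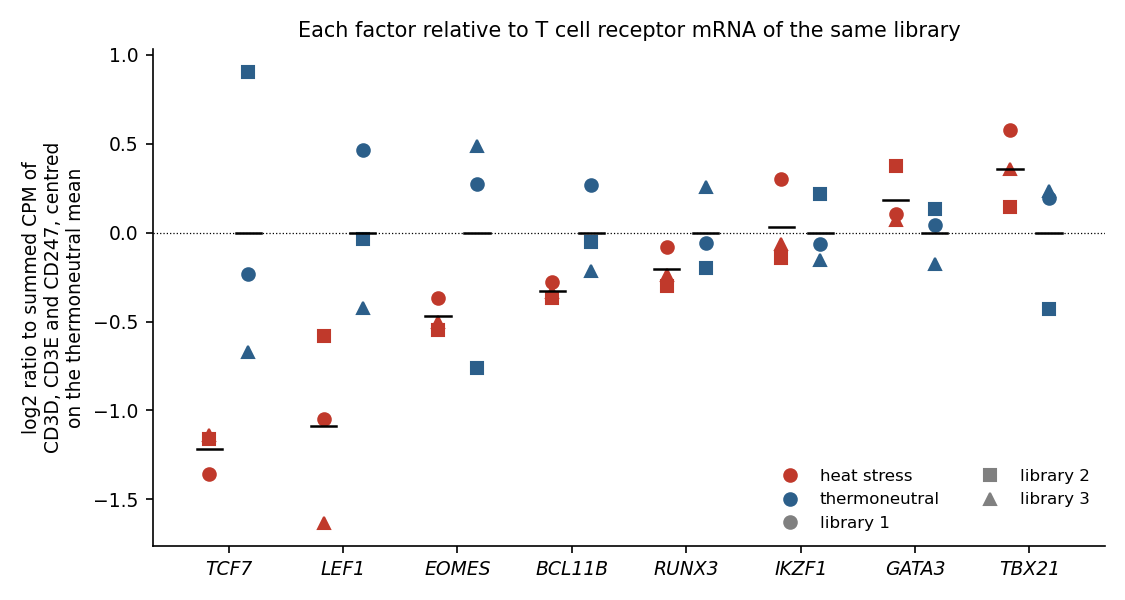
Log2 ratio of each factor to the summed CPM of CD3D, CD3E and CD247 in the same library, centred on the thermoneutral mean, with heat stress (red) left of thermoneutral (blue) and bars for group means. TCF7, LEF1 and BCL11B lie lower in all heat stress libraries, and the groups overlap for the other factors.

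Genes of the T cell receptor complex and its signalling were lower by sign in heat-stressed fat in 23 of 24 measured, with a median log2 fold change of -0.55. By sign, 50.6% of all genes were lower. In edgeR 1 of them (CD3D) passed the FDR, where 0.061% of all genes passed lower. An unadjusted p under 0.05 in edgeR was reached by 16, all lower, where 9.2% of all genes were lower. DESeq2 called 11 lower and 0 higher, against 4.31% of genes lower and 5.32% higher. The genes of smallest p after CD3D were CD3E (-0.61 ± 0.086, FDR = 0.0518), the kinase PRKCQ (-0.84 ± 0.13, FDR = 0.0544) and the adaptor TRAT1 (-0.97 ± 0.16, FDR = 0.0573). Summed over the list, levels were 717 to 943 CPM in heat stress and 1004 to 1223 CPM in thermoneutral libraries, without overlap. CD7 was the largest part of that sum in every library. Alone it measured 304 to 578 CPM in heat stress and 479 to 681 CPM in thermoneutral libraries, which overlapped.

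Other lymphoid transcription factors had both signs. Of 32 measured, 17 had negative and 15 positive log2 fold changes (median -0.071), where 50.6% of all genes were negative. In edgeR 0 passed the FDR. There 8 lower and 5 higher had an unadjusted p under 0.05, where 9.2% of all genes were lower and 9.56% higher. DESeq2 called 4 lower and 3 higher, against 4.31% of all genes lower and 5.32% higher. NFATC1, a calcium-regulated factor of T cells that endothelium also uses, measured 101 ± 11.3 CPM in heat stress and 45.7 ± 11.8 CPM in thermoneutral fat (log2 fold change 1.14 ± 0.19, edgeR FDR = 0.0573). NOTCH1, the receptor that starts the T lineage in the thymus and also acts in vessels, measured 199 ± 25.3 CPM in heat stress and 125 ± 4.70 CPM in thermoneutral fat (0.67 ± 0.11, edgeR FDR = 0.0573). IKZF3, the Ikaros relative Aiolos, measured 8.435 ± 1.91 CPM in heat stress and 14.9 ± 1.16 CPM in thermoneutral fat (-0.82 ± 0.19, edgeR FDR = 0.0885). TOX, a factor of T cell development, measured 1.63 ± 0.48 CPM in heat stress and 3.95 ± 1.18 CPM in thermoneutral fat (-1.28 ± 0.34, edgeR FDR = 0.118).

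Genes listed as targets of the T-box factors, of GATA3 or of TCF7 and LEF1, from work in mice or humans, were mostly lower by sign. Whether each gene listed, S1PR1 among them, is a target in these cells was not tested. Of 17 measured, 15 had negative log2 fold changes (median -0.41), as did 50.6% of all genes, and 0 passed the FDR in edgeR. In edgeR 3 lower and 1 higher had an unadjusted p under 0.05, where 9.2% of all genes were lower and 9.56% higher. DESeq2 called 2 lower and 1 higher, against 4.31% of genes lower and 5.32% higher. S1PR1, a lymphocyte exit receptor that endothelium also carries, measured 217 ± 42.9 CPM in heat stress and 129 ± 17.1 CPM in thermoneutral fat (log2 fold change 0.75 ± 0.16, edgeR FDR = 0.0845). GNLY, a granule protein of killer cells, measured 57.7 ± 8.01 CPM in heat stress and 99.4 ± 24.85 CPM in thermoneutral fat (-0.78 ± 0.20, edgeR FDR = 0.106). IFNG, interferon gamma, was rare in both groups, at 0.169 ± 0.076 CPM in heat stress and 0.535 ± 0.065 CPM in thermoneutral fat (-1.66 ± 0.44, edgeR FDR = 0.118). A level of 1 CPM stood for 29.98 to 46.01 counts in these libraries, so the IFNG values rest on few counts. AXIN2 and NKD1, feedback genes of Wnt signalling, stood at -0.060 ± 0.16 and 0.17 ± 0.14 (edgeR FDR = 0.879 and 0.564).

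Markers of other cells also differed between the groups by sign, and their part in these results was not tested. Of all genes tested, 50.6% were lower by sign. B cell markers were lower by sign in 8 of 11 (median -0.89), with summed levels of 144 to 209 CPM in heat stress and 167 to 209 CPM in thermoneutral libraries. A sum weighs the most abundant marker most, here EBF1, at 85.7 to 108 CPM in heat stress and 77.5 to 90.0 CPM in thermoneutral fat. The B cell markers of smallest p were PAX5 (-3.76 ± 0.73, edgeR FDR = 0.0679), CD79B (-2.60 ± 0.65, FDR = 0.104), CXCR5 (-2.21 ± 0.64, FDR = 0.138) and TNFRSF13C (-2.50 ± 0.85, FDR = 0.184). Each averaged under 1 CPM in heat stress and was highest in thermoneutral 2. By sign, 3 of the 11 markers were higher: EBF1, BLNK and CD72. For CD72 this came from heat stress 1 (9.68 CPM, against 0.326 and 0.367 CPM in heat stress 2 and 3). Thermoneutral libraries held 1.25 to 1.75 CPM of CD72. Whether the EBF1 and BLNK mRNA came from B cells was not tested. Macrophage and dendritic cell markers were lower in 12 of 13 (median -0.43), summing to 3083 to 5390 CPM in heat stress and 5187 to 5436 CPM in thermoneutral fat. Erythrocyte and thrombocyte markers were lower in 6 of 7 (median -0.88, 247 to 402 CPM in heat stress and 411 to 906 CPM in thermoneutral fat). Preadipocyte and fibroblast markers were lower in 9 of 12 (median -0.44, 34994 to 42647 CPM in heat stress and 48673 to 60063 CPM in thermoneutral fat). Endothelial markers were higher in 11 of 12 (median 0.48, 2950 to 3547 CPM in heat stress and 2440 to 3112 CPM in thermoneutral fat), and adipocyte markers in 8 of 10 (median 0.56, 23482 to 27090.1 CPM in heat stress and 20797 to 27944 CPM in thermoneutral fat). In edgeR 0 members of these 6 lists passed the FDR. At an unadjusted p under 0.05 in edgeR, 8 B cell, 4 macrophage and dendritic cell, 3 erythrocyte and thrombocyte, 6 preadipocyte and fibroblast and 1 adipocyte marker were lower, where 9.2% of all genes were. By the same rule 7 endothelial, 3 adipocyte and 1 preadipocyte and fibroblast marker were higher, where 9.56% of all genes were. DESeq2 called 3 B cell, 4 macrophage and dendritic cell, 1 erythrocyte and thrombocyte, 4 preadipocyte and fibroblast and 1 adipocyte marker lower, against 4.31% of genes, and 6 endothelial, 3 adipocyte and 1 preadipocyte and fibroblast marker higher, against 5.32%. The table holds only genes with at least 1 count in every library, so a marker at 0 cannot be seen in it. No value was found under the symbols CD68, HBAD, GATA1 and KLF1, and the reason was not tested.

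**Figure D5:**
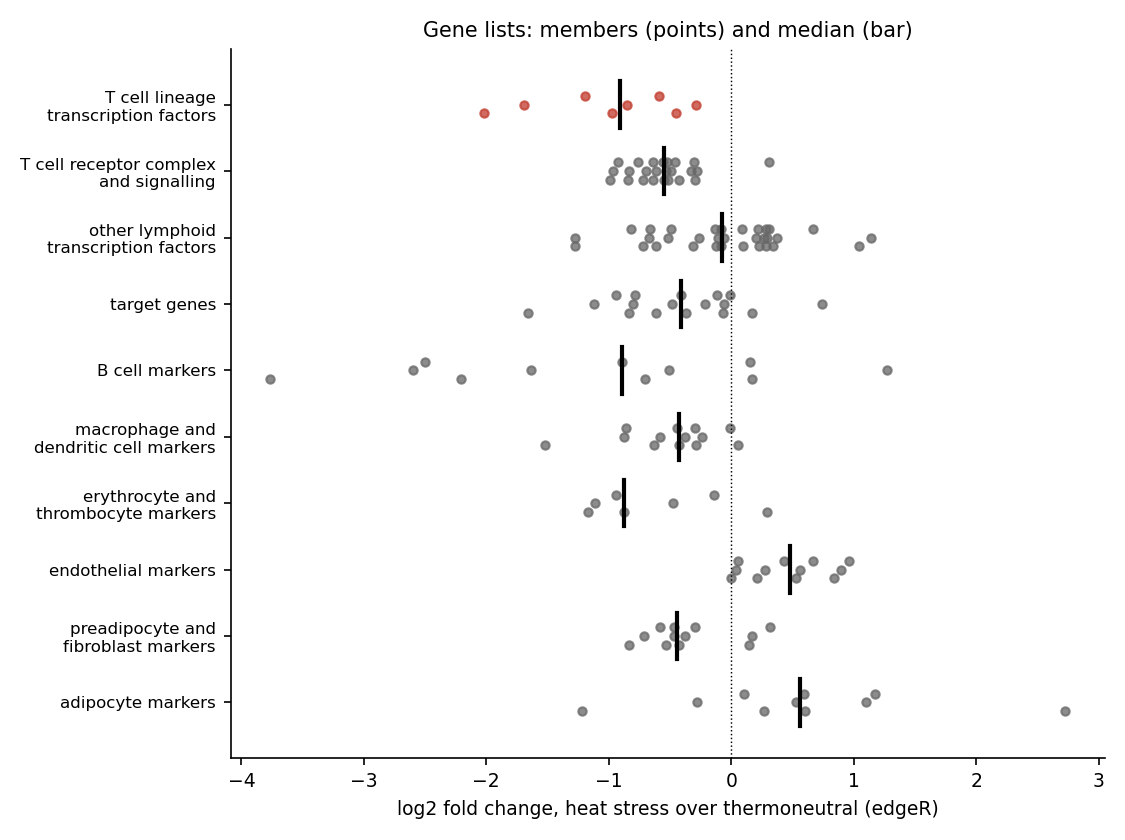
Log2 fold change of each measured gene (points) and the median (bar) by gene list, with the median of all genes tested as a dotted line. The T cell lineage factors (red) have a median of -0.91, the T cell receptor genes one of -0.55, and the endothelial and adipocyte markers lie mostly above 0.

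The genes most like the mean profile of the 8 factors over the 6 libraries were ribosomal protein genes. RPL9, RPL17, RPS15A, RPL37 and RPLP0 had Pearson r of 0.999, 0.997, 0.994, 0.992 and 0.991, and 129 of 11634 genes compared reached 0.95. Their log2 fold changes ran from -0.62 (RPL37) to -0.26 (RPL9), with levels of 207 to 539 CPM in heat stress and 319 to 661 CPM in thermoneutral fat. Singly, TCF7 was most like GPR171 (r = 0.995), a G protein-coupled receptor, and IKZF1 most like DOCK8 (r = 0.997), a guanine nucleotide exchange factor of leukocytes. GATA3 was most like FAM46C (r = 0.998), BCL11B like the glycolytic enzyme ENO1 (r = 0.997), LEF1 like RPIA, EOMES like DCAF6 and TBX21 like GMPPB (r = 0.992 for each of the last 3). These r describe 6 points that share the group difference, and no p is attached.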

How the data were processed

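The members and gene lists were chosen with earlier results of these data known. The submitters' processing notes name StringTie 2.1.3b, HISAT2 2.1.0, Bowtie2 2.3.4.1 and the build GRCg6a, with no role for any tool and no word on strand in counting. Per the labels' protocols a stranded mRNA kit was used on TRIzol-extracted RNA. The table deposited by the authors holds raw counts, and TPM and FPKM values scaled for length, per its file headers. The authors' deposited tables also hold signed fold changes (a score, below 0 for lower genes), adjusted and raw p-values, and other whole numbers of genes per ontology term. A further 36 columns of values per library were not used. Sequences of the genes were not used here.

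Counts were tested with edgeR 4.0.16 (R 4.3.3): TMM, filterByExpr, quasi-likelihood F test with group as the only term, Benjamini-Hochberg adjustment over 14743 genes at an FDR of 0.05. The SE is the absolute log2 fold change over the square root of F. Alternatives were DESeq2 1.42.0, other scalings and filters, the replicate number as a block, each library left out, and limma 3.58.1 on log2(TPM + 1) and log2(FPKM + 1). Likeness used log2 CPM with a prior count of 2, over genes with a proper symbol and a mean of at least 1 CPM. From each list the 4 genes of smallest p were to be named, and others such as CCR7, CD7, EBF1, AXIN2, NKD1, ADIPOQ and FABP4 were picked after their values were seen. A few genes that the naming rules pick are not reported here. Marker lists of other cells are given as counts, medians and sums, with single genes named for some. The counts of replicate libraries disagreed by more than sampling noise (chi-square over its degrees of freedom was 34.4 to 98.2), and each was kept as a sample.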

Additional observations from a re-analysis of the deposited data

How the results depend on the processing

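All 8 factors kept a negative log2 fold change in every setting in which they were tested (LEF1 was not tested at 1 CPM in all libraries). No factor passed the FDR in any edgeR or limma setting, and DESeq2 called 5. Leaving out 1 library, a check added after seeing the data, DESeq2 called 4 to 6 factors lower, against 2.81% to 4.99% of genes. EOMES dropped out without thermoneutral 3, and IKZF1 came in without heat stress 1. Of the 8, 5 to 7 were lower at an unadjusted p under 0.05 with 1 library left out in edgeR. The share of all genes was 5.87% to 9.28%. Over all genes edgeR called 26, 17 higher and 9 lower. It called 99 with library totals (80 higher, 19 lower), 133 at 1 CPM in all libraries and 3 to 35 with 1 library left out, while DESeq2 called 1362 and limma on log2(TPM + 1) 202 (184 higher, 18 lower). With the replicate number as a block edgeR called 95 genes and 0 factors. Same-numbered libraries had correlations of deviations of 0.078, 0.252 and 0.036, so the numbers were not taken as pairs. The ratio of IKZF1 to T cell receptor mRNA turned to -0.033 with the mean of the receptor list as denominator, and ran from -0.10 to 0.14 with 1 library left out. List medians with 1 library left out ran from -0.072 to 0.018 (other lymphoid factors), -0.46 to -0.19 (target genes), -2.04 to -0.49 (B cell), -0.81 to -0.31 (macrophage and dendritic cell), -1.09 to -0.44 (erythrocyte and thrombocyte, the last without thermoneutral 2) and 0.31 to 0.65 (adipocyte). The causes were not tested.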

Other observations

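The authors' shorter deposited list, named for fold change and raw p, holds 3 of the 8 factors, TCF7, LEF1 and EOMES. It has 742 genes, all of at least 2-fold change, 368 of them lower (2.38% of the genes in the full table). The signed fold changes of TCF7, LEF1 and EOMES in the authors' deposited table are -4.06, -3.23 and -2.28. At an adjusted p under 0.05 in the authors' deposited table, 5 of the 8 factors are lower, against 4.09% of genes. The same 3 stand in the authors' gene ontology term for T cell differentiation, with 16 genes (10 lower and 6 higher in heat stress) and an adjusted p of 0.00261 in the authors' deposited table. The other lower genes there are IFNG, CCR6, GPR18, IRF4, TOX, FANCA and CCR7, from -3.20 to -2.17. The higher genes are NKX2-3, PCK1, EGR3, EGR1, IL12B and DLL4, from 5.74 to 2.03 in the authors' deposited table. Of 35 terms named for T cells or lymphocytes that hold at least 1 of the factors, 6 have an adjusted p under 0.05 in the authors' deposited table. These terms share genes, and their genes come from the shorter list, which holds only genes of at least 2-fold change and is also named for raw p.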
